A study of Mus musculus with 3 samples.

Results

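Snai1, Snai2, Twist1, Twist2, Zeb1, Zeb2, Vim, Fn1, Tnc and S100a4, the regulators and marker genes of epithelial-mesenchymal transition (EMT), were compared between late carcinomas and adenomas of the mouse mammary gland. They were found as the rows of the value table whose gene symbol in the platform annotation is one of these 10 names, which gave 27 of 38976 rows and 10 of 15056 named genes. Of these genes, 6 encode transcription factors and 4 encode structural, matrix or calcium-binding proteins.

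Each of 3 two-colour arrays compared total RNA of a late carcinoma, an outgrowth taken at 18 weeks (Cy3), with that of an adenoma, an outgrowth taken at 5 weeks (Cy5). Every outgrowth came from a single mammary hyperplasia of a pubertal mouse with the MMTV-PyMT and B-actin-GFP transgenes, placed into a host of the same strain. The MMTV promoter drives the polyoma middle T antigen mainly in mammary epithelium, so both stages carried this oncogene, and the host supplied its own stroma. Whether the arrays used separate animals is not given, so the spread behind each p-value is that between arrays and may be technical.

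In EMT, epithelial cells lose their junctions and gain the shape and motility of mesenchymal cells. Snail (Snai1) and Slug (Snai2) are zinc finger repressors, Zeb1 and Zeb2 are zinc finger and homeodomain repressors, and Twist1 and Twist2 are basic helix-loop-helix factors; all 3 families bind the E-box, whose letters are CANNTG, and can repress the E-cadherin gene. Vim encodes the intermediate filament vimentin, Fn1 fibronectin, Tnc the matrix glycoprotein tenascin C and S100a4 a calcium-binding protein also called fibroblast-specific protein. Fibroblasts, endothelial cells and macrophages also express several of these genes. In bulk tumour RNA, fewer cells of a type and less RNA per cell cannot be told apart.

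The values were read as log2 of adenoma over late carcinoma. A value below 0 is thus likely higher in late carcinomas and a value above 0 likely higher in adenomas. The labels list the Cy5 adenoma as the first channel and such ratios are usually Cy5 over Cy3, which is the basis of this direction. Numerator and log base are not stated, and a ratio formed as Cy3 over Cy5 would turn every direction below. Dye orientation was the same on all arrays, so dye and stage cannot be told apart.

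The upstream sequences of 4 genes that passed the test are shown because Twist1 and Twist2, close relatives, lay on opposite sides of 0, while Snai1 and Vim lay on the side of Twist1. Tnc and Zeb2 also passed on the side of Twist1, but their windows are only described, so the 4 shown are a selection. Each is the 250 bases before the start site in RefSeq on GRCm38.p6, 5′ to 3′ on the plus strand, at chr12:33957421-33957670 for Twist1, chr1:91801211-91801460 for Twist2, chr2:167537945-167538194 for Snai1 and chr2:13574061-13574310 for Vim. Capitals mark E-boxes (CANNTG, which reads as the same pattern on both strands) and the CCAAT box on either strand (CCAAT or ATTGG), the second motif being chosen after the sequences were seen.
Twist1: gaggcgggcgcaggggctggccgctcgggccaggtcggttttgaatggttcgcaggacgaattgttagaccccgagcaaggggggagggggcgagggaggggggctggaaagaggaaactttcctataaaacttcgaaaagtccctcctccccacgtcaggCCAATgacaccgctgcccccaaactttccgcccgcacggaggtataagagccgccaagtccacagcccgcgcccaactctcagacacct
Twist2: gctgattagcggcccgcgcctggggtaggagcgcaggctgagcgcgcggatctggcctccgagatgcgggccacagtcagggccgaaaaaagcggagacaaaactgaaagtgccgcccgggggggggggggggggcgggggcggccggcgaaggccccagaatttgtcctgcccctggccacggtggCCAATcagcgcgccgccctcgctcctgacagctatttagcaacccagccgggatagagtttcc
Snai1: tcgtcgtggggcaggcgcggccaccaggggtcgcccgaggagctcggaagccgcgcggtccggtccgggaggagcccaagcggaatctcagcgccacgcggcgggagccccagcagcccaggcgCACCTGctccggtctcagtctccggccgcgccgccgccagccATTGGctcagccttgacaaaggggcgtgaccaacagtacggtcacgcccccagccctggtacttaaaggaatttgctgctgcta
Vim: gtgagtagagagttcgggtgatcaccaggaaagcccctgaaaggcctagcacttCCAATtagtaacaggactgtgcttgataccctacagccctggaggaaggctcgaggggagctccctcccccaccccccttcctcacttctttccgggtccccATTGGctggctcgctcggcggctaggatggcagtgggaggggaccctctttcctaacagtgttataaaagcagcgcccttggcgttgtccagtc
Snai1 held 1 E-box, CACCTG, starting 126 bases before the start site, and no other E-box fell in these 4 windows. An E-box of any kind occurred in 66.2% of the 32851 promoter windows of 250 bases in the same table, and CACCTG or its reverse complement CAGGTG in 17.2%. A CCAAT box lay in each of the 4 windows and in 1 of 4 Zeb2 windows, but in neither Tnc window and not in that of S100a4, so 5 of 7 genes had one in at least 1 window. Of all windows, taken one by one, 33.8% held it. In Twist1 it started 89 and in Twist2 63 bases before the start site, so the genes on opposite sides of 0 were alike in this respect. Of the 10 genes, 7 had a promoter in the table, and Tnc was the other one with an E-box. These matches describe letters and not bound sites.

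Late carcinomas likely had more RNA of Twist1, Snai1, Vim, Tnc and Zeb2 than adenomas, by 1.32-fold to 1.66-fold. Twist2 lay the other way, likely 1.42-fold higher in adenomas, though this call was lost under another centring given below. The calls were not equally stable. Under 13 alternative settings given below, Zeb2 kept its direction and call in 8, Tnc in 9, Vim in 10 and Twist2 in 11. Twist1 and Snai1 kept theirs in 12. Snai2, Zeb1, Fn1 and S100a4 did not pass the test. With limma's moderated statistics and p-values adjusted by Benjamini-Hochberg over all 31058 genes and unnamed rows, 6 of the 10 genes passed an adjusted p of 0.05, 5 below 0 and 1 above. Among 15055 named genes measured on every array, 25.2% passed, 9.19% below 0 and 16.0% above 0. The median of the 10 means was -0.39, against -0.027 for named genes.

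All these calls were lost without array 3, along with nearly all others in the whole table. Without array 3, 0 of the 10 genes and 1 of 31058 units passed. In that fit 7 of the 10 genes and 7758 units had an unadjusted p under 0.05, against 8 and 12545 with array 3. Of the 10 genes, 4 passed without array 1 and 6 without array 2, while 7324 and 6997 of all 31058 units passed. Without array 3 the means of the Twist genes moved little, to -0.70 for Twist1 and 0.50 for Twist2. Other means moved more when an array was left out. Without array 1, Vim went from -0.51 to -0.34 and Tnc from -0.48 to -0.33. Without array 2, Snai1 went from -0.64 to -0.80. When a running median of 29 rows was taken off each array, Vim, Tnc and Zeb2 did not pass (adjusted p = 0.0761, 0.0741 and 0.0938), and S100a4 passed at -0.50 (adjusted p = 0.0354).

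**Figure D1:**
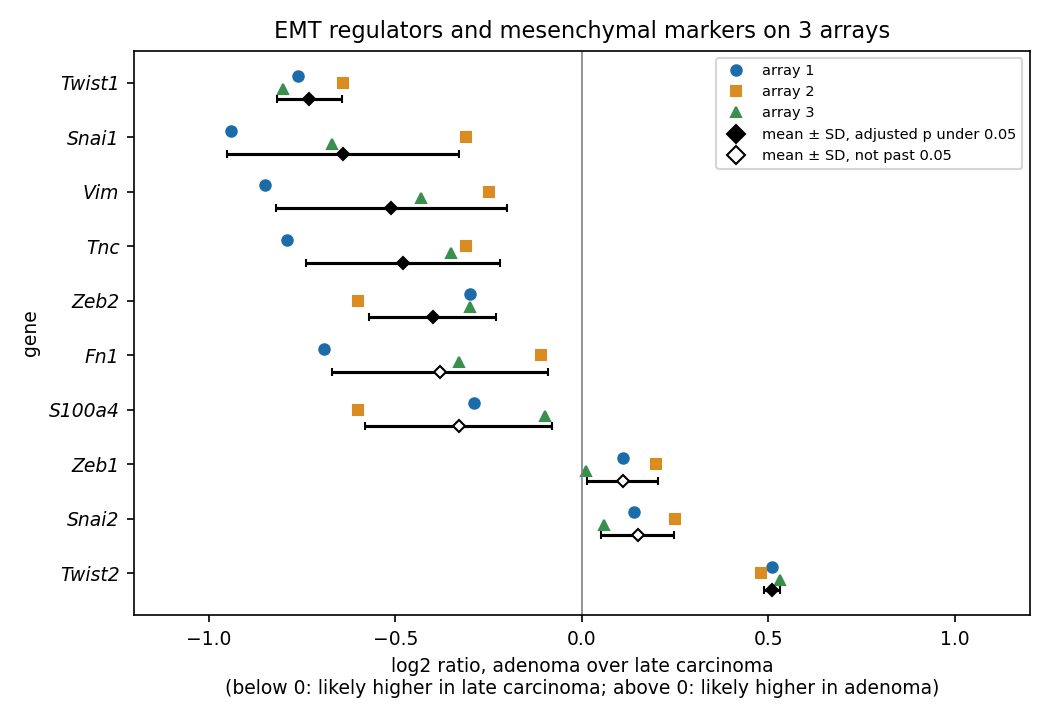
Log2 ratio of adenoma over late carcinoma (x axis) for each of the 10 genes (y axis), with 1 symbol per array and a diamond for the mean ± SD over 3 arrays, filled where limma's adjusted p was under 0.05. Twist1 and Twist2 sit at -0.73 and 0.51 with little spread, and Snai1, Vim and Tnc spread more, with array 1 lowest.

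The Twist genes had the smallest SDs over arrays among the 10 genes. Twist1, a driver of mesoderm and neural crest development, had log2 ratios of -0.76, -0.64 and -0.80 on arrays 1, 2 and 3. All 3 values lay below 0 and close together. The mean was -0.73 ± 0.087 (SD, n = 3), a 1.66-fold higher level in late carcinomas (limma adjusted p = 0.0117). Twist2, which acts in skin and bone precursors, had 0.51, 0.48 and 0.53 on the same arrays. Its values lay above 0 on each array and did not overlap those of Twist1. The mean was 0.51 ± 0.021 (SD, n = 3), a 1.42-fold higher level in adenomas (limma adjusted p = 0.0168), but 0.16 with each array centred on olfactory and vomeronasal receptor genes (adjusted p = 0.225). The difference of Twist2 minus Twist1 was 1.27, 1.12 and 1.33, or 1.24 ± 0.11 (SD, n = 3; exact two-sided permutation test over arrays, p = 0.25, the smallest that 3 arrays allow). Each Twist gene had 1 row in the table, so no other row checks it.

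Snai1 lay below 0 and its relative Snai2 slightly above. Snai1, which represses E-cadherin, had -0.94, -0.31 and -0.67. Array 2 was nearest to 0, and the spread was wider than for Twist1. The mean was -0.64 ± 0.31 (SD, n = 3), 1.56-fold higher in late carcinomas (limma adjusted p = 0.0222). Snai2, a marker of basal mammary cells, had 0.14, 0.25 and 0.059. These values were above 0 on each array but small, with a mean of 0.15 ± 0.098 (SD, n = 3), a 95% interval of -0.098 to 0.40 and a limma adjusted p of 0.319. Snai2 minus Snai1 was 1.08, 0.57 and 0.73, or 0.79 ± 0.26 (SD, n = 3; exact permutation p = 0.25). Over the 3 comparisons of relatives the Benjamini-Hochberg adjusted value was also 0.25.

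The ZEB genes lay closer to 0 than the Twist genes. Zeb2 had -0.30, -0.60 and -0.30, with array 2 lowest and a mean of -0.40 ± 0.17 (SD, n = 3), 1.32-fold higher in late carcinomas (limma adjusted p = 0.0450). This mean joined unlike rows. The first row of Zeb2 had 0.45, -0.47 and 0.17, on both sides of 0 (row mean 0.050, limma adjusted p = 0.861). The second row had -1.04, -0.73 and -0.78, below 0 on each array (row mean -0.85, limma adjusted p = 0.00963). With the first row alone the mean of Zeb2 turned to 0.050, and without array 2 Zeb2 had -0.30 (adjusted p = 0.183). Zeb1 had 0.11, 0.20 and 0.011, with a mean of 0.11 ± 0.095 (SD, n = 3), a 95% interval of -0.14 to 0.36 and a limma adjusted p of 0.470. Its row means were 0.16 and 0.059, and neither row kept 1 sign over the arrays. Zeb1 minus Zeb2 was 0.41, 0.80 and 0.32, or 0.51 ± 0.26 (SD, n = 3; exact permutation p = 0.25).

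Vim, the classic mesenchymal filament gene, had gene means of -0.85, -0.25 and -0.43, with array 1 lowest. The mean was -0.51 ± 0.31 (SD, n = 3), 1.42-fold higher in late carcinomas (limma adjusted p = 0.0411), and without array 1 it was -0.34 (adjusted p = 0.0875). The annotation gives Vim 8 rows, all under 1 transcript accession. Of these, 7 had means below 0 and 1 above. The third row, in table order, had 0.57, 0.47 and 0.79. It was above 0 on every array and passed on its own (row mean 0.61, limma adjusted p = 0.0139). The rows below 0 had means from -0.92 to -0.11, and 4 of them passed. The fourth had the lowest mean, with -1.19, -0.52 and -1.03. The fifth was nearly flat, with -0.12, -0.075 and -0.12. The median over the 8 rows gave Vim a mean of -0.68 (limma adjusted p = 0.0260).

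Among Vim, Fn1 and Tnc, the genes with at least 4 rows, Tnc had the smallest spread over rows. Tenascin C is laid down in tumour stroma and wounds. The gene had -0.79, -0.31 and -0.35 on the 3 arrays, with array 1 lowest, and a mean of -0.48 ± 0.26 (SD, n = 3), 1.4-fold higher in late carcinomas (limma adjusted p = 0.0394). Without array 1 the mean was -0.33 (adjusted p = 0.0866). All 6 rows had means below 0, from -0.65 to -0.21, and 2 passed on their own. The fifth row had -0.62, -0.78 and -0.54, and the second had -0.86, -0.45 and -0.46. The first row was the weakest, with -0.33, -0.027 and -0.28 (row mean -0.21, limma adjusted p = 0.228).

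Fn1 and S100a4 lay below 0 on each array but did not pass. Fn1, a matrix protein bound by integrins, had -0.69, -0.11 and -0.33, with a mean of -0.38 ± 0.29 (SD, n = 3; limma adjusted p = 0.0854). Without array 2 it was -0.51 and passed (adjusted p = 0.0460), and without array 1 it was -0.22 (adjusted p = 0.237). Of its 4 rows, the fourth alone passed, with -1.44, -0.58 and -0.77 (row mean -0.93, limma adjusted p = 0.0131). The other rows had means of 0.028, -0.31 and -0.29, and the first was above 0 on array 1, at 0.33. S100a4 had 1 row, with -0.29, -0.60 and -0.10 and a mean of -0.33 ± 0.25 (SD, n = 3; 95% interval -0.63 to -0.024; limma adjusted p = 0.103). Without array 2 S100a4 had -0.19 (adjusted p = 0.406).

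**Figure D2:**
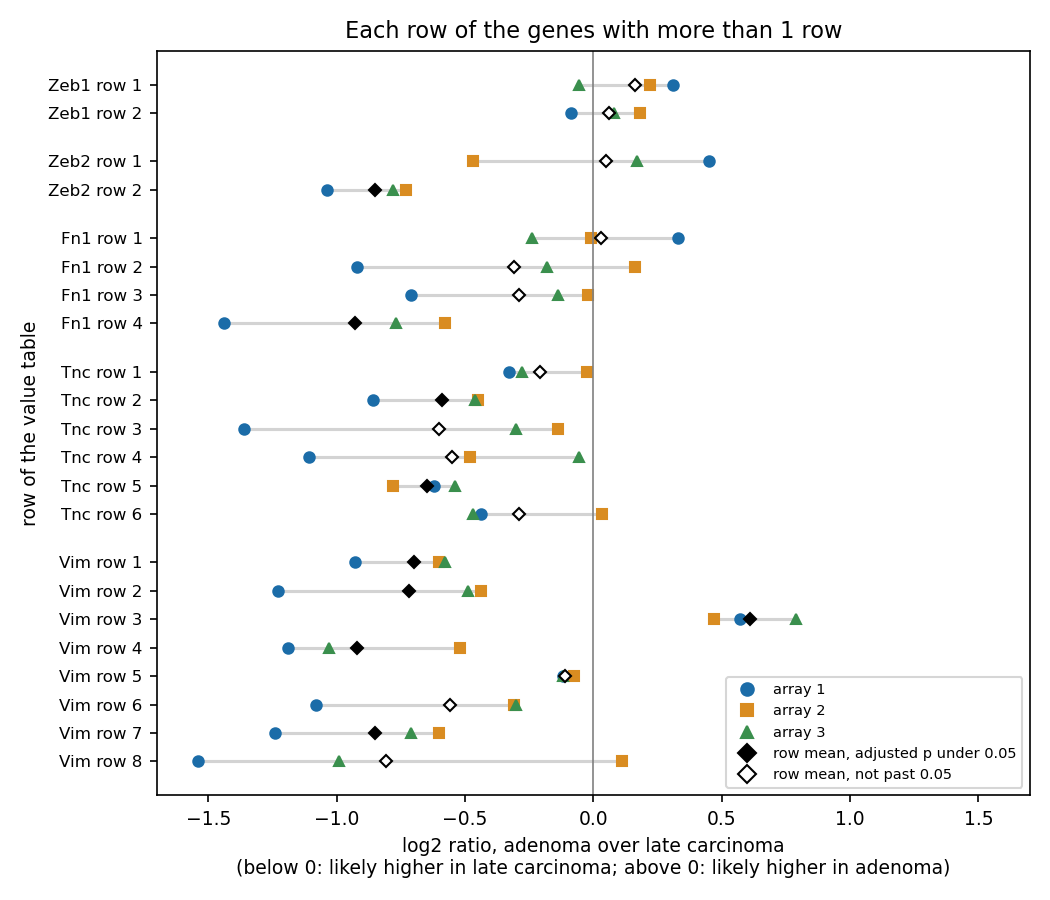
Log2 ratio of adenoma over late carcinoma (x axis) for each row of the 5 genes with more than 1 row (y axis, rows in table order), with 1 symbol per array, a grey line for the range and a diamond for the row mean, filled where the row's limma adjusted p was under 0.05. The third Vim row lies above 0 on each array, while the Tnc row means all lie between -0.65 and -0.21.

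With each row of the table tested by itself, 12 of the 27 rows passed, 10 below 0 and 2 above, against 27.0% of 22972 named rows, 10.8% below 0 and 16.2% above 0. The same sign on every array was seen in 20 of the 27 rows. The share over all named rows was not computed, and among named genes it was 63.2%. Rows of a gene share their target and their RNA, so they are not replicates. The SD of row means was 0.52 for Vim, 0.40 for Fn1 and 0.18 for Tnc, against a median of 0.31 over 424 genes with at least 4 rows. Over the 27 rows, Pearson's r of array 1 was 0.56 with array 2 and 0.79 with array 3, and that of arrays 2 and 3 was 0.65. Over all units the same correlations were 0.610, 0.744 and 0.711. These describe agreement between arrays of the same probes and dyes and carry no p.

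In order of their means the genes ran Twist1, Snai1, Vim, Tnc, Zeb2, Fn1, S100a4, Zeb1, Snai2 and Twist2. Of the 9 neighbouring pairs, 7 had overlapping array values. S100a4, at most -0.10, and Zeb1, at least 0.011, did not overlap, nor did Snai2, at most 0.25, and Twist2, at least 0.48. Each of the 10 genes kept its sign on 3 of 3 arrays, 7 below 0 and 3 above. Among named genes, 63.2% kept their sign on every array, 32.1% below 0 and 31.1% above. Array 1 gave the lowest value for 4 of the 7 genes below 0.

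Receptor genes of the olfactory and vomeronasal epithelia, which serve smell, show how genes not known for a role in mammary tissue behaved on these arrays. Their 976 means ran from -0.88 to 1.33 with a median of 0.34, and 46.1% passed, 2.66% below 0 and 43.4% above 0. All 10 means lay within that range. At or below Twist1 there was 1 receptor gene, and at or below Snai1 also 1. Receptor genes at or below Vim numbered 15, Tnc 16 and Zeb2 30. At or above Twist2 there were 379, or 38.8%, so a value as high as that of Twist2 was common among receptor genes. With each array centred on the receptor genes, 7 of the 10 genes passed below 0 and 0 above, against 5 and 1 as deposited. Twist2 then had 0.16 (adjusted p = 0.225), Fn1 -0.73 (0.00725) and S100a4 -0.68 (0.00524). Over all 31058 units that centring gave 16831 calls below 0 and 2282 above, against 2861 and 4948 as deposited. That centring shifted the median of all units to -0.37. The same value is taken off every gene of an array, so the order of the 10 genes could not change.

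**Figure D3:**
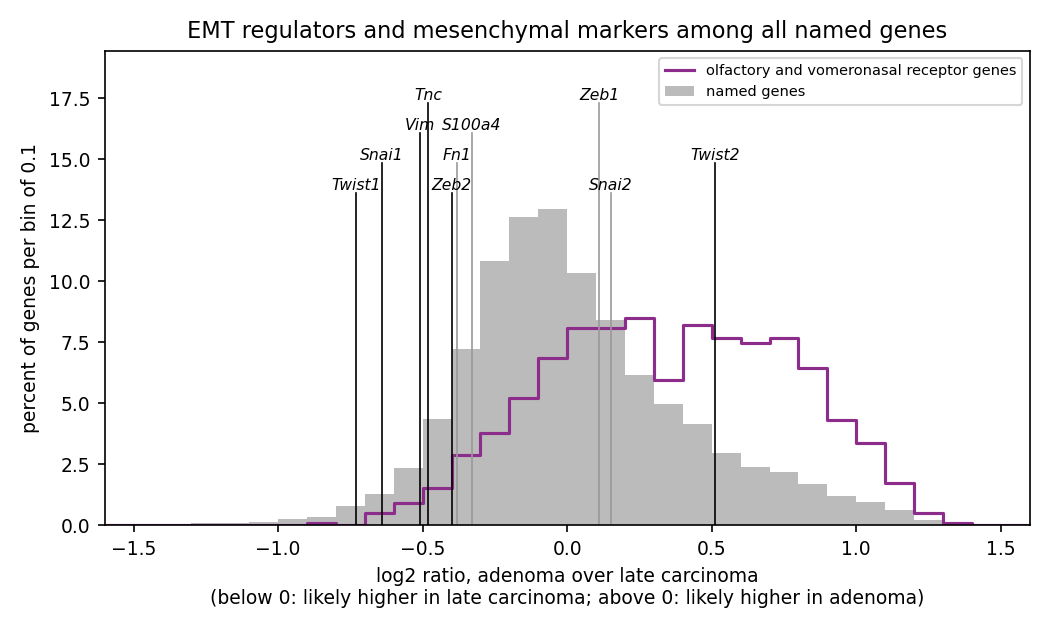
Percent of genes per bin of 0.1 (y axis) by mean log2 ratio of adenoma over late carcinoma (x axis, drawn from -1.6 to 1.6), in grey for named genes and as a purple outline for 976 receptor genes, with a vertical line at each of the 10 genes (black where adjusted p was under 0.05, grey otherwise). Twist1 and Snai1 lie in the lower tail of both distributions, and Twist2 lies in the middle of the receptor genes.

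Beyond the 10 genes, 102 others were measured in 6 wider lists, of which 11 passed below 0 and 15 above. These are 10.8% and 14.7%, near the 9.19% and 16.0% of named genes. With receptor centring, 64 passed below 0 and 4 above, while over all 31058 units 16831 passed below 0 and 2282 above. Receptor-centred counts of single lists are to be read beside that shift of the whole table. Over all units, 2840 passed below 0 and 4484 above without array 1, and 2377 and 4620 without array 2. Counts of single lists with 1 of these arrays left out are to be read beside those. EMT transcription factors other than the 6 above held 1 of 10 below 0 and 1 above. Foxc2, a forkhead factor, had 1.1 ± 0.46 (limma adjusted p = 0.0120), and Snai3, another Snail relative, had -0.56 ± 0.26 (0.0246), chosen after its value was seen. Of 12 genes listed as regulators of the epithelial state, which include the cell cycle inhibitor gene Cdkn2a (-0.23, adjusted p = 0.204), 0 passed below 0 and 2 above. These were Elf5, which drives alveolar differentiation, at 0.67 ± 0.22, and Gata3, which maintains luminal cells, at 0.58 ± 0.10, though centring on the receptor genes ended the call of Gata3 (adjusted p = 0.103). Esrp1, a splicing factor of epithelia, had -0.34 (adjusted p = 0.0509).

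Epithelial genes that EMT factors can repress went both ways, with 1 of 17 passing below 0 and 3 above, or 23.5% called, against 25.2% of named genes. The 3 above 0 became 1 without array 1 and 1 without array 2, and with receptor centring 10 passed below 0 and 0 above. Cdh1, the E-cadherin gene and best known target of Snail, Twist and ZEB factors, had 0.29, 0.82 and 0.79. Its values were above 0 on each array, opposite to Snai1, Twist1 and Zeb2 and on the same side as Twist2, Snai2 and Zeb1. The mean was 0.63 ± 0.29 (SD, n = 3), 1.55-fold higher in adenomas (limma adjusted p = 0.0211). Whether any of these factors repressed Cdh1 in these tumours was not tested. The junction scaffold gene Tjp1 had 0.44 ± 0.15 and the claudin gene Cldn3 0.36 ± 0.091. Centred on the receptor genes, none of these 3 passed, and Cdh1 had 0.28 (adjusted p = 0.13). The keratin gene Krt19 lay on the other side at -1.16 ± 0.35, 2.24-fold higher in late carcinomas. The list median was -0.14.

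Other mesenchymal and matrix genes held 2 of 22 below 0 and 2 above, or 18.2% called, against 25.2% of named genes. Col1a1, a chain of type I collagen, had -0.84 ± 0.45 and Thbs1, the thrombospondin gene, -0.47 ± 0.16. Cdh11, a cadherin of fibroblasts, had 0.58 ± 0.25 and the matricellular gene Postn 0.42 ± 0.23, with row means from -0.20 to 1.06 and from -0.24 to 1.08. Neither passed with receptor centring (Cdh11 0.23, adjusted p = 0.125; Postn 0.071, adjusted p = 0.654), where 13 of the 22 genes passed below 0 and 0 above. Without array 2 the counts were 5 below 0 and 1 above. The N-cadherin gene Cdh2, often paired with loss of E-cadherin, had 0.23 (adjusted p = 0.153).

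The list of EMT-inducing signals, which also includes genes that are not inducers, such as Id3, held 3 of 26 below 0 and 6 above. These are 34.6% called, against 25.2% of named genes. Below 0 were Id3, an inhibitor of helix-loop-helix factors, at -1.0 ± 0.24, the growth factor gene Pdgfb at -0.47 ± 0.038 and Hgf, the ligand of Met, at -0.57 ± 0.22, chosen after its value was seen. Above 0 were the cytokine gene Il6 at 0.77 ± 0.40, Tgfb3 at 0.72 ± 0.015 and 4 genes chosen after their values were seen. These were Notch1 at 0.55 ± 0.24, Hif1a at 0.49 ± 0.24, the TGF-beta receptor gene Tgfbr1 at 0.42 ± 0.10 and Wnt5a at 0.40 ± 0.092. With receptor centring 17 of the 26 passed below 0 and 2 above, and without array 2 the 6 above 0 became 3. Tgfb1, the best known inducer of EMT, had -0.34 (adjusted p = 0.214). Receptors and partners of fibronectin, tenascin and S100A4 held 4 of 16 below 0 and 1 above, or 31.2% called, with a list median of -0.21. Receptor centring gave 13 below 0 and 0 above, and the count above 0 was 0 without array 1 and 2 without array 2. Itgb1, the beta 1 chain shared by fibronectin receptors, had -0.69 ± 0.034, and Sdc4, a syndecan that binds fibronectin, -0.73 ± 0.21. Mif had -0.65 ± 0.13, and Myh9, the myosin bound by S100A4, -0.60 ± 0.33, chosen after its value was seen. Itgav, a vitronectin receptor chain that also binds fibronectin, had 0.48 ± 0.18. Errors in these lists are SD over 3 arrays. Without array 3, 0 of the 102 genes passed.

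**Figure D4:**
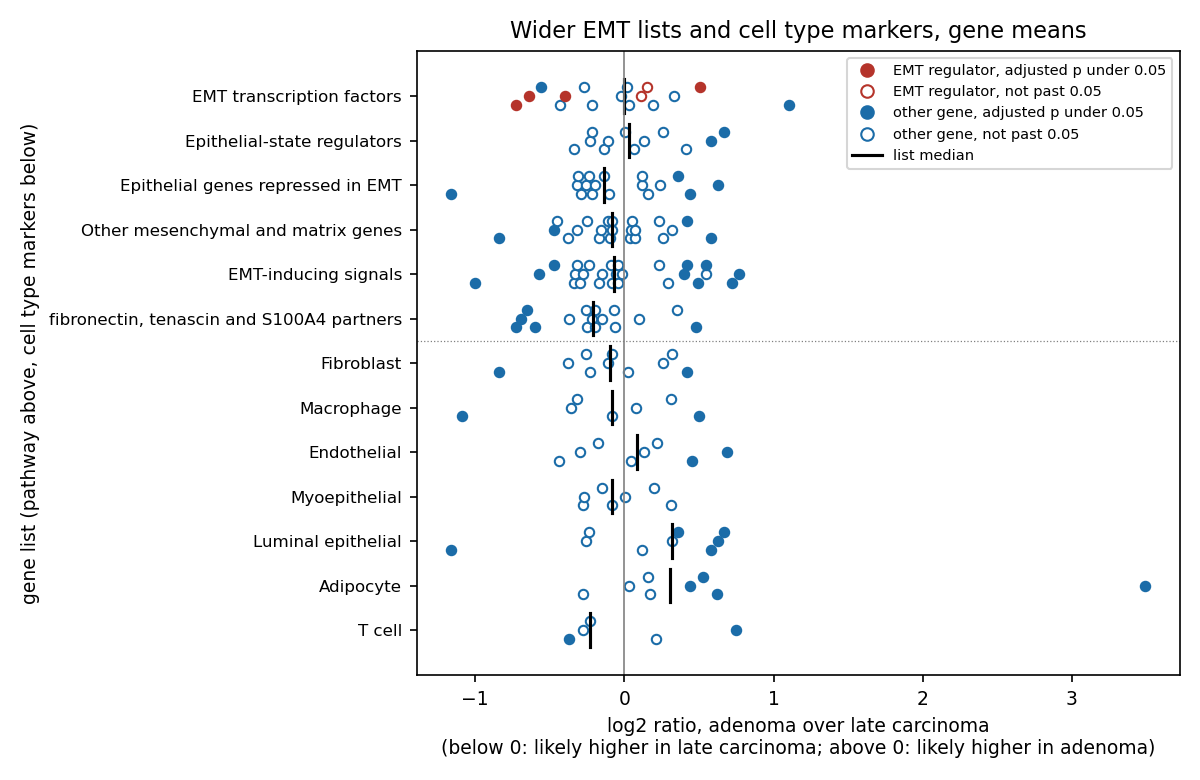
Mean log2 ratio of adenoma over late carcinoma (x axis) of each gene in 6 EMT lists and 7 cell type marker lists (y axis), filled where limma's adjusted p was under 0.05, with red for the EMT transcription factors described first and a black bar for the list median. Filled points lie on both sides of 0 in most lists, and luminal and adipocyte medians lie near 0.3.

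Markers of the cell types that could carry these genes were measured in the same RNA. Ratios hold no level, so whether a marker was near background was not measured here. Beside the 25.2% of named genes that passed, the 7 lists held 0% to 55.6%. Of the 10 fibroblast markers, 1 passed below 0 (Col1a1) and 1 above (Postn), or 1 and 2 without array 1 and 2 and 0 without array 2, and their means on arrays 1, 2 and 3 were -0.26, 0.048 and -0.057. Of 7 macrophage markers, 1 passed below 0, Itgam at -1.09 ± 0.27, and 1 above, Adgre1 at 0.50 ± 0.23, with list means of -0.20, -0.13 and -0.079, and without array 1 the count above 0 was 0. Endothelial markers held 0 of 8 below 0 and 2 above, Kdr (0.69 ± 0.23) and Esam (0.45 ± 0.090), with list means of -0.030, 0.11 and 0.16, and without array 2 the counts were 1 and 1. Myoepithelial markers held 0 of 7 either way, or 1 below 0 without array 2. The largest in size was Mylk at 0.31 ± 0.33, and the list means were -0.098, 0.027 and -0.037.

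Luminal markers held 1 of 9 below 0, Krt19 at -1.16 ± 0.35, and 4 above (Cdh1, Elf5, Gata3 and Cldn3). Krt8 (-0.26) and Krt18 (-0.24) lay below 0 and Epcam (0.12) and Esr1 (0.32) above 0 without passing. The list median was 0.32, and the list means were -0.010, 0.18 and 0.17. Adipocyte markers of the host fat pad held 0 of 8 below 0 and 4 above, with a median of 0.30. Fabp4, which carries fatty acids, had 3.49 ± 0.60, Lep 0.62 ± 0.11, Adipoq 0.53 and Lpl 0.44. Retn (0.17), Pparg (0.16), Plin1 (0.028) and Cidec (-0.28) did not pass. Centring on the receptor genes ended the calls of Lep (0.27, adjusted p = 0.0597), Adipoq, Lpl, Cdh1, Gata3 and Cldn3. The adipocyte list means were 0.71, 0.61 and 0.60, which include Fabp4 at 3.9, 3.76 and 2.8 on arrays 1, 2 and 3. T cell markers held 1 of 5 below 0, Cd2 at -0.37 ± 0.11, and 1 above, Cd3g at 0.75 ± 0.11, with list means of 0.19, -0.037 and -0.10, and the count below 0 was 2 without array 1 and 0 without array 2. Errors are SD over 3 arrays. With receptor centring, markers passing below 0 and above 0 numbered 6 and 0 for fibroblasts, 4 and 0 for macrophages and 3 and 1 for endothelial cells. They numbered 4 and 0 for myoepithelial cells, 3 and 1 for luminal cells, 1 and 1 for adipocytes and 3 and 1 for T cells. Over all 31058 units, 16831 passed below 0 and 2282 above with that centring. The counts over all units were 2840 and 4484 without array 1, and 2377 and 4620 without array 2. The part of these cell types in the ratios of Vim, Tnc, Twist1 or Twist2 was not tested.

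**Figure D5:**
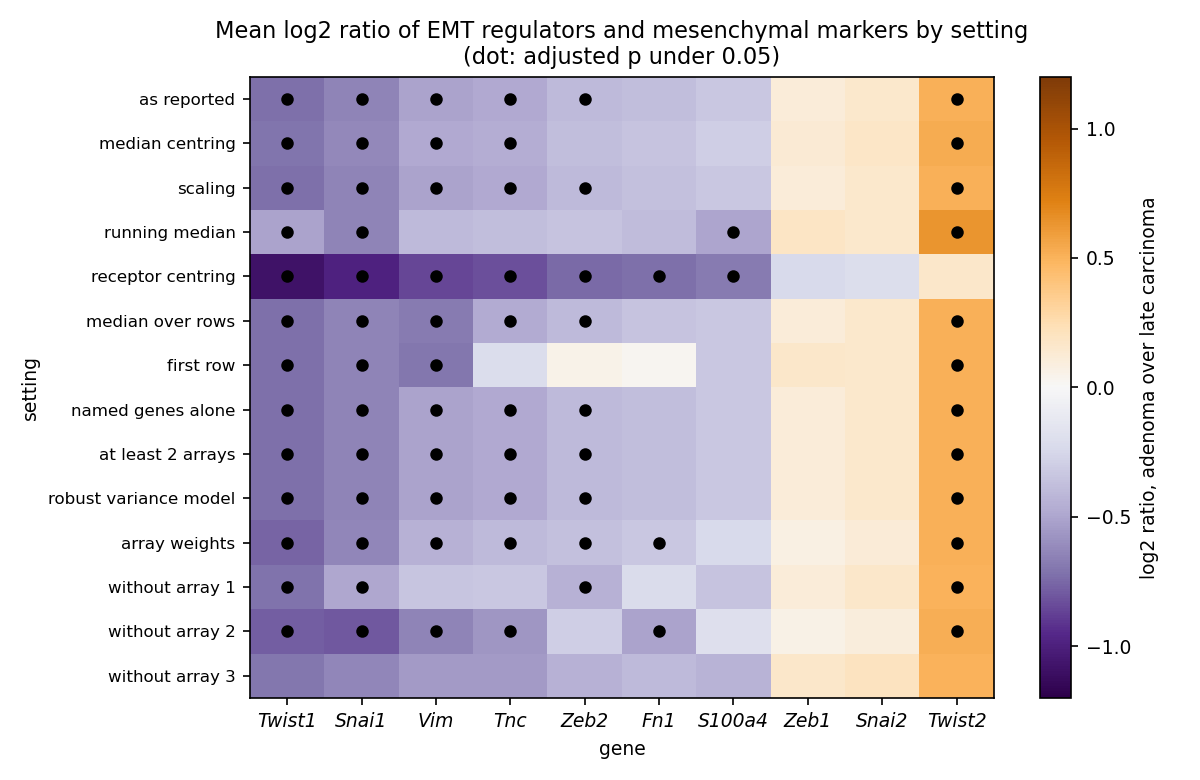
Mean log2 ratio of adenoma over late carcinoma (colour) of the 10 genes (x axis) under the deposited values and 13 alternatives (y axis), with a dot where limma's adjusted p was under 0.05. Twist1 and Snai1 have a dot in every setting but the one without array 3, and Twist2 in every setting but that one and receptor centring.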

How the data were processed

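Each of 3 two-colour arrays held late carcinoma RNA (Cy3) and adenoma RNA (Cy5), per the labels. The deposited value table holds log ratios, read here as log2 from their range. How the authors scanned, corrected and normalized the arrays is not stated in the labels or files. Array medians were -0.012, -0.025 and -0.033. Precision is limited by the number of arrays.

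Of 38976 rows, 22973 had 1 gene symbol in the platform annotation, 0 had several and 16003 had none, and 22973 matched a GRCm38.p6 gene identifier, used for names. A gene's rows were averaged within each array, and unnamed rows stayed separate, giving 31058 units. The test was that of limma 3.58.1 (R 4.3.3) for a mean other than 0 (two-sided, lmFit and eBayes, prior degrees of freedom 4.60), adjusted p under 0.05. Intervals are 95% from the moderated SE. Figures used matplotlib 3.10.9.

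The 10 genes and all lists were chosen with earlier results of these data known. By rule, lists named up to 4 passing genes each and marker lists up to 2, by smallest p; genes named beyond that were picked with their values in view. The alternatives were median, receptor and running-median (29 rows) centring, scaling, other row and unit rules, array weights, a robust variance model, each array left out in turn, and a threshold of 0.1. On simulated data for adenoma over late carcinoma with 31058 units, log2 changes of 0.5, 1, 2 and 3.5 were recovered in 0%, 72%, 98% and 100% of 50 units each. Far fewer units changed there than passed in the data, so recovery does not carry over.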

Additional observations from a re-analysis of the deposited data

How the results depend on the processing

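No paired analysis was possible because the arrays form 1 group. Of 13 alternatives besides the looser threshold, Twist1 and Snai1 kept their direction and call in 12, Twist2 in 11, Vim in 10, Tnc in 9 and Zeb2 in 8, and the cause of each change was not tested unless given. The 6 genes past the threshold became 0 to 6 when 1 array was left out (0 to 5 below 0, 0 to 1 above 0), with the lowest counts without array 3. Below 0, 3 in place of 5 passed with the running median and 3 with the first row of each gene, which uses fewer rows; above 0, 0 in place of 1 passed with receptor centring. Means changed sign for Snai2 (-0.20) and Zeb1 (-0.24) with receptor centring and for Zeb2 (0.050) and Fn1 (0.028) with the first row. Zeb2 did not pass with median centring either (-0.38, adjusted p = 0.0533). Of the 27 rows, 12 passed, against 20 with receptor centring and 0 to 15 with 1 array left out. The 26 calls in the wider lists became 68 with receptor centring (64 below 0, 4 above) and 0 to 24 with 1 array left out. Over all units the 7809 calls became 12036 with array weights, 19113 with receptor centring and 4274 with named genes alone (fewer units). They became 7324 without array 1, 6997 without array 2 and 1 without array 3. Signal over background was not measured here, so what dim spots limit is unknown.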
